A study of Danio rerio with 8 samples.

Results

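Primordial germ cells (PGCs) and somatic cells of the zebrafish gastrula were compared at 7 hours post fertilisation (hpf). The comparison used 4 of the 8 RNA-seq libraries, namely the 2 libraries labelled PGC at 7 hpf and the 2 labelled soma at 7 hpf, and covered every gene in the count table. The other 4 libraries came from the same cell types at 24 hpf and entered the fit, where they helped to estimate the spread between replicates. PGCs were obtained by fluorescence-activated cell sorting from embryos of the kop-EGFP-F-nos3'UTR line, whose transgene also holds a cry-DsRed cassette according to the study's methods, and in which a membrane-bound green fluorescent protein marks the germ cells through regulatory sequences of germ cell genes, and soma was sorted from the same line, so that both groups carried the transgene. The libraries were made from total RNA with a low-input kit. The labels number the replicates but do not say which embryos they came from, so p-values measure the spread between these libraries. The deposited data were expected counts, which are estimated read counts per gene. Levels are given as CPM or as TPM. CPM are counts scaled to the size of the library times its TMM factor, an edgeR adjustment of library size. At 7 hpf these factors were 1.35 and 1.388 for PGCs and 0.988 and 1.03 for soma. TPM is the deposited transcript abundance that is also corrected for transcript length.

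In zebrafish, the germline is set aside by inheritance. A maternally made aggregate of RNA and protein called germ plasm is passed to a few cells, and these cells become PGCs, hold back somatic programmes, and migrate along a gradient of the chemokine Cxcl12 towards the future gonad. Many germ plasm RNAs are cleared from somatic cells by the microRNA miR-430 and protected in PGCs by the RNA-binding protein Dnd1. At 7 hpf the embryo is gastrulating, the soma is being divided into ectoderm, mesoderm and endoderm, and PGCs have begun to move.

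The 7 hpf libraries held 6997561 to 13533554 expected counts, and 3 counts in a library, the floor used here, corresponded to 0.218 to 0.309 CPM. Over the 10339 genes that averaged 50 or more counts, replicates had a Spearman correlation of 0.915 in PGCs and 0.92 in soma, and PGC and soma libraries had 0.782 to 0.812 between them; these are descriptions over genes, which share libraries. The germ cell markers nanos3, dnd1, ca15b and tdrd7a were at 223 CPM or more in both PGC libraries and at 5.16 CPM or less in both soma libraries. The 5.8S ribosomal RNA took 33.5% and 23.3% of TPM in PGCs and 16.4% and 21% in soma, and its part in the TPM values of other genes was not tested. In bulk libraries, fewer cells of a type and less RNA per cell cannot be told apart.

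Differences in transcript level between PGCs and soma during gastrulation were tested with edgeR for 19885 genes. The threshold was an adjusted p below 0.05 together with a log2 fold change of 1.5 or more in either direction. In PGCs, 717 genes were higher (3.61% of those tested) and 364 were lower (1.83%), together 5.44% of the tested genes. Higher and lower genes differed in abundance. Among the 1816 genes that averaged 100 CPM or more over the 4 libraries, 26 were higher and 95 lower in PGCs, and their median log2 fold change was -0.58. Among the 5838 genes with 10 to 100 CPM, 361 were higher and 181 lower (median -0.14), and among the 6561 genes with 1 to 10 CPM, 281 were higher and 63 lower (median 0.26). The median over all tested genes was 0. The PGC and soma libraries did not overlap in any of the 1081 genes past the threshold, nor in 48.7% of all tested genes, so that non-overlap adds nothing to a call. A total of 58 higher genes had 0 counts in both soma libraries and 28 lower genes had 0 counts in both PGC libraries. Leaving out PGC replicate 2 reduced the calls to 111 higher and 41 lower genes, and leaving out PGC replicate 1 gave 418 higher and 366 lower genes. Without a minimum fold change, 799 genes were higher and 848 lower.

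**Figure D1:**
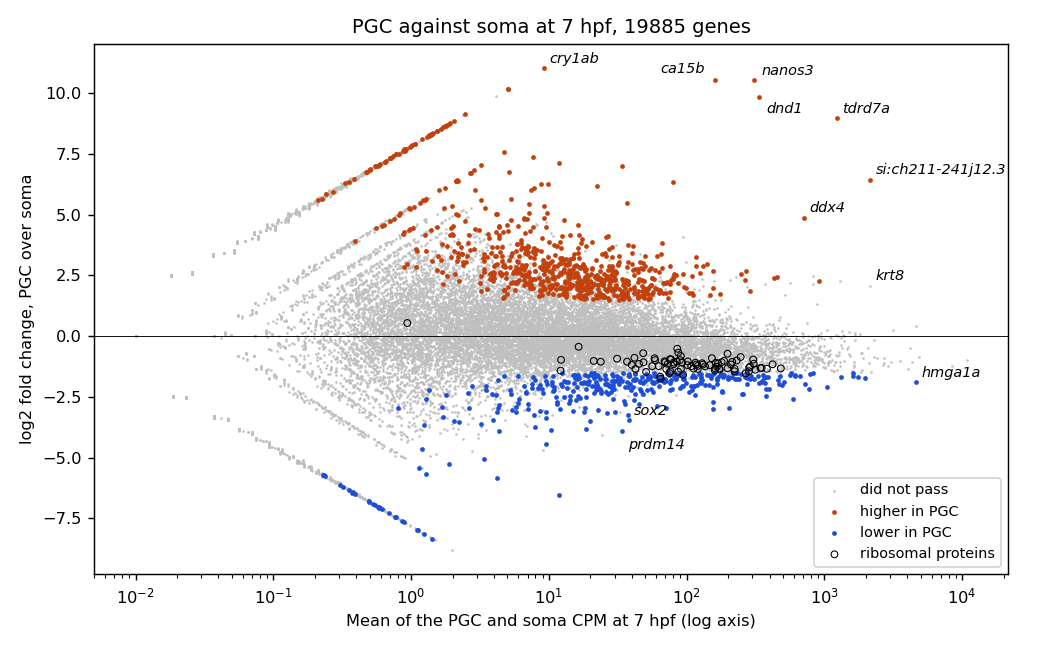
Mean CPM of PGC and soma at 7 hpf (log axis) against the fitted log2 fold change of PGC over soma, one point per tested gene, with the 717 higher genes in orange, the 364 lower genes in blue and ribosomal protein genes circled. The slanted outer edges are genes with no counts in one of the groups, whose fold change depends on the fit, and most circled genes lie below 0 without passing the threshold of 1.5.

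Germ plasm and germ cell identity genes included several that were abundant in PGCs and near the floor in soma. Of 19 tested members, 9 rose in PGCs (47.4%, beside 3.61% of all tested genes) and 0 fell, with a median log2 fold change of 2.86, beside 0 over all tested genes. nanos3, which encodes an RNA-binding translational repressor needed to maintain PGCs, had 596 and 639 CPM in PGCs, against 0.524 and 0.28 CPM in soma. This gave a log2 fold change of 10.52 ± 0.57 (SE), with an adjusted p of 0.000182 in edgeR. The carbonic anhydrase gene ca15b had 414 and 223 CPM in PGCs, against 0.299 and 0.0932 CPM in soma. The soma values of both genes lie near the floor of 3 counts, so the sizes of these ratios rest on few soma reads. dnd1 had 595 and 743 CPM in PGCs, against 0.449 and 1.02 CPM in soma, a log2 fold change of 9.85 ± 0.81 (SE, adjusted p = 0.00333, edgeR). The germ granule component tdrd7a, a Tudor domain protein, was the most abundant of these 4 genes, with 1762 and 3128 CPM in PGCs, against 5.16 and 4.66 CPM in soma. PGC and soma libraries did not overlap for any of them, as for every gene past the threshold.

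The RNA helicase gene ddx4, also known as vasa, was higher in PGCs but clearly measured in soma as well. It had 1255 and 1509 CPM in PGCs, against 70.4 and 24.6 CPM in soma, a log2 fold change of 4.86 ± 0.49 (SE), with an adjusted p of 0.00898 in edgeR. dazl, a translational activator of germ cell mRNAs, had 95.9 and 39.6 CPM in PGCs, against 0.973 and 0 CPM in soma. rgs14a, a regulator of G protein signalling, had 224 and 91.9 CPM in PGCs, against 1.2 and 2.79 CPM in soma. The remaining rises were gra, a germ plasm transcript, with a log2 fold change of 5.48 ± 0.83 (SE), and one of the IDs annotated hook2 (ENSDARG00000099235), with 2.86. The replicates of PGCs differed by more than 2-fold in dazl, rgs14a, gra and this hook2 ID.

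Not every germ plasm gene separated the groups. buc, the organiser of germ plasm assembly in the oocyte, had 21.5 and 20.9 CPM in PGCs, against 6.96 and 3.45 CPM in soma (log2 fold change 2.02 ± 0.68 SE, adjusted p = 0.107, edgeR). The Tudor gene tdrd6 had 49.9 and 96.5 CPM in PGCs, against 39.2 and 30.6 CPM in soma (adjusted p = 0.177). The RNA-binding protein genes celf1 and ybx1, both broadly expressed in the embryo, had log2 fold changes of -0.71 and -1.25 and did not pass. The libraries of all 4 genes were separated between the groups, as were those of 23.8% (PGC above) and 24.9% (PGC below) of all tested genes. Leaving out each library in turn kept 8 to 10 germ plasm genes higher, with at most 1 lower.

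**Figure D2:**
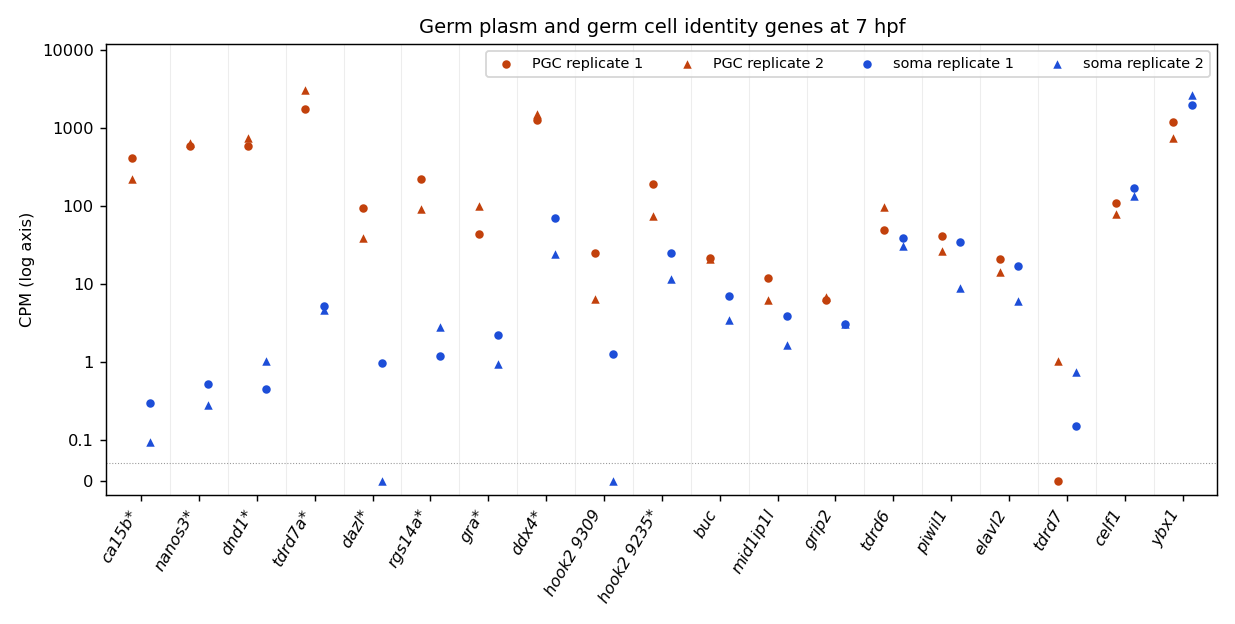
CPM (log axis, with 0 drawn at the bottom) of the 19 tested germ plasm and germ cell identity genes in each 7 hpf library, PGC in orange and soma in blue, ordered by log2 fold change. Asterisks mark the 9 genes that passed, which stand apart by up to 3 orders of magnitude at the left, while piwil1, elavl2 and tdrd7 overlap between the groups; numbers after hook2 are the last digits of its IDs.

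Piwi-interacting RNAs (piRNAs) are small RNAs that silence transposons in germ cells. Of 18 tested genes of this pathway, 4 rose (22.2%, beside 3.61% of all tested genes) and 0 fell, with a median log2 fold change of 1.41. The rises were tdrd7a, asz1, ddx4 and tdrd1. asz1, a germ granule protein gene required for piRNA production in mouse, had 8.92 and 29.9 CPM in PGCs, against 0.374 and 0.0932 CPM in soma. tdrd1, a Tudor scaffold for Piwi proteins, had 29.2 and 39.5 CPM in PGCs, against 2.25 and 3.07 CPM in soma (log2 fold change 3.69 ± 0.62 SE, adjusted p = 0.0191, edgeR). Both genes were separated between the groups, as was every gene past the threshold. The pathway had 2 rises without PGC replicate 2 and 3 to 5 without each of the other libraries.

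The Piwi genes themselves were measured in soma and did not pass. piwil1 had 41.8 and 26.9 CPM in PGCs, against 34.5 and 8.95 CPM in soma, and the groups overlapped (log2 fold change 0.66 ± 0.66 SE, adjusted p = 0.575, edgeR). piwil2 had 20.75 and 22.4 CPM in PGCs, against 15.9 and 3.91 CPM in soma (1.11 ± 0.72 SE, adjusted p = 0.361). The Tudor gene rnf17 had a log2 fold change of 2.66 ± 0.88 (SE) and did not pass (adjusted p = 0.0947). In both Piwi genes soma replicate 2 was the low library, and soma replicate 1 approached the PGC values.

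Among 10 tested meiosis genes, 2 rose (20%, beside 3.61% of all tested genes) and 0 fell. sycp1, a component of the synaptonemal complex, had 5.88 and 24.7 CPM in PGCs, against 0.0748 and 0.373 CPM in soma (log2 fold change 6.09 ± 1.45 SE, adjusted p = 0.0379, edgeR). adad1, an RNA-binding protein gene known from mouse spermatogenesis, had 9.5 and 7.11 CPM in PGCs, against 0.599 and 0.0932 CPM in soma. Each call was lost in at least 1 of the fits that left out a library, where the list kept 0 to 2 higher genes. Of 23 maternal and oocyte transcripts, 1 rose, the oocyte kinase gene wee2, with 53.7 and 86.8 CPM in PGCs, against 8.61 and 1.77 CPM in soma. Their median log2 fold change was 0.98. The oocyte transcripts had 0 rises without PGC replicate 1, PGC replicate 2 or soma replicate 2, and 2 without soma replicate 1.

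PGC migration was examined through genes of chemokine guidance and adhesion. Among 19 tested guidance and adhesion genes, 1 rose (rgs14a, 5.26%, beside 3.61% of all tested genes) and 2 fell (10.5%, beside 1.83%), with a median of 0. An ID annotated ackr3 (ENSDARG00000058179), a decoy receptor that clears Cxcl12 and is known to act in somatic cells, had 14.6 and 8.76 CPM in PGCs, against 42.7 and 51.8 CPM in soma (log2 fold change -2.01 ± 0.38 SE, adjusted p = 0.0217, edgeR). anxa5b, an annexin gene, had 3.7 and 2.37 CPM in PGCs, against 24.5 and 15.4 CPM in soma. The receptor for Cxcl12 is encoded by duplicated genes, and the IDs annotated cxcr4 had log2 fold changes of 0.54 and -1.54, neither past the threshold. The guidance list had 0 falls without PGC replicate 2, 1 without soma replicate 1 and 2 without either of the other libraries.

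**Figure D3:**
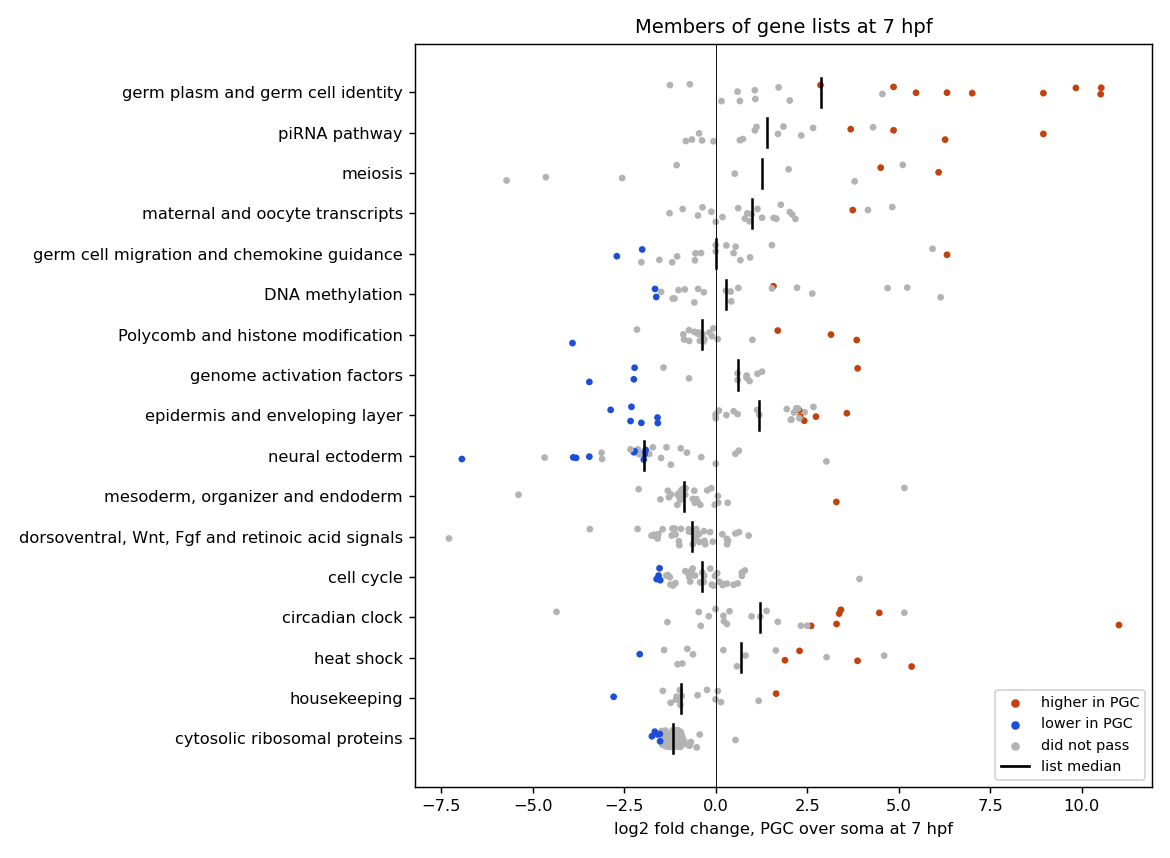
Fitted log2 fold change of PGC over soma at 7 hpf for every tested member of 17 gene lists, with members higher in PGCs in orange, lower members in blue, members that did not pass in grey and the list median as a black line. Germ plasm members reach beyond 10 at the top right, neural ectoderm members lie mostly below 0, and ribosomal proteins form a tight group near -1.17.

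DNA methylation and chromatin genes were compared because PGCs of mammals erase DNA methylation. In zebrafish PGCs, the study itself reported no genome-wide reprogramming of DNA methylation. It found similar methylation patterns in PGCs and soma at every stage it examined. The relation of the RNA levels below to DNA methylation was not tested. Of 21 tested genes for writers, readers and erasers of DNA methylation, 1 rose (4.76%, beside 3.61% of all tested genes) and 2 fell (9.52%, beside 1.83%). tet1, an enzyme that oxidises 5-methylcytosine, had 6.46 and 7.52 CPM in PGCs, against 1.72 and 2.98 CPM in soma (log2 fold change 1.58 ± 0.38 SE, adjusted p = 0.0392, edgeR). uhrf1, the factor that recruits the maintenance methyltransferase, had 374 and 222 CPM in PGCs, against 1009 and 832 CPM in soma (-1.63 ± 0.31 SE, adjusted p = 0.0214). The ID annotated dnmt3b, a de novo methyltransferase gene, had 31.9 and 24.9 CPM in PGCs, against 88.6 and 91 CPM in soma. The maintenance methyltransferase gene dnmt1 had 131 and 212 CPM in PGCs, against 221 and 258 CPM in soma, and did not pass (-0.48 ± 0.29 SE, adjusted p = 0.316). dnmt3ba had an adjusted p of 0.0223 with a log2 fold change of -1.18, short of the fold threshold. The levels of tet3 were below 1 CPM in every library. Without PGC replicate 2 the list had 0 rises and 0 falls, without soma replicate 1 it had 1 fall, and without PGC replicate 1 or soma replicate 2 it had 3 falls.

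Polycomb proteins maintain silencing through histone modification. Of 22 tested genes for Polycomb, other histone modifiers and chromatin remodelling, 3 rose (13.6%, beside 3.61% of all tested genes) and 1 fell (4.55%, beside 1.83%). Most members leaned the other way from the rises, with 17 of 22 log2 fold changes below 0 and a median of -0.37. Over tested genes the median was -0.58 for those averaging 100 CPM or more and -0.14 for those with 10 to 100 CPM. The share of all tested genes with a log2 fold change below 0 was not counted. Both copies of the Polycomb repressive complex 1 gene bmi1 rose. bmi1b had 11.4 and 26.1 CPM in PGCs, against 1.8 and 0.745 CPM in soma, and bmi1a had 21.5 and 29.4 CPM in PGCs, against 3.37 and 2.33 CPM in soma (log2 fold changes 3.85 ± 0.65 and 3.15 ± 0.43 SE, adjusted p = 0.0194 and 0.0143, edgeR). smarca2, a chromatin remodelling ATPase gene, rose by 1.69 on the log2 scale. ezh2, the histone methyltransferase of Polycomb repressive complex 2, had 254 and 212 CPM in PGCs, against 315 CPM in both soma libraries, and did not pass (-0.43 ± 0.25 SE, adjusted p = 0.298).

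The gene that fell was prdm14. In mouse this transcriptional regulator is required for PGC specification, whereas in zebrafish it is known from motor neuron development. It had 3.77 and 4.74 CPM in PGCs, against 81.3 and 47.1 CPM in soma. Its log2 fold change of -3.92 ± 0.62 (SE) had an adjusted p of 0.0169 in edgeR. The lowest soma library was above both PGC libraries, as for every lower gene past the threshold. Histone modifier genes had 0 falls without either PGC library, 2 without soma replicate 1 and 1 without soma replicate 2, and their rises numbered 1 without PGC replicate 2, 2 without soma replicate 2 and 3 without the others.

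In the main edgeR fit, neural ectoderm genes passed the threshold in 1 direction only. Of 29 tested neural ectoderm genes, 10 fell (34.5%, beside 1.83% of all tested genes) and 0 rose, and the median log2 fold change was -1.95. DESeq2 and edgeR's exact test each called 18 falls and 0 rises, and limma on TPM called 3 or 4 falls. Without a count filter, edgeR called 18 falls and 1 rise. The SoxB1 genes of neural progenitors belonged to these. sox2 had 6.24 and 6.49 CPM in PGCs, against 97.7 and 42 CPM in soma (log2 fold change -3.46 ± 0.56 SE, adjusted p = 0.0174, edgeR). sox19a had 61.5 and 64.2 CPM in PGCs, against 355 and 239 CPM in soma, and sox3 had 48.2 and 28.8 CPM in PGCs, against 197 and 162 CPM in soma. The maternally supplied SoxB1 gene sox19b, in contrast, had 74.6 and 137 CPM in PGCs, against 65.3 and 52.7 CPM in soma, and did not pass (0.84 ± 0.32 SE, adjusted p = 0.138). zic1, a zinc finger gene of the neural plate, had 0.871 and 4.22 CPM in PGCs, against 11.3 and 58.6 CPM in soma. The IDs annotated six3 (ENSDARG00000054879) and pax2 (ENSDARG00000028148), regulators of forebrain and midbrain, were near or under the floor in PGCs and at most 12.11 and 1.68 CPM in soma. pax2 had 0 counts in both PGC libraries and was at least 4.18-fold lower in PGCs, against the floor of 3 counts per library. Further falls were irx1 (-1.95), zic2 (-1.95) and gbx1 (-1.97), given as log2 fold changes. Neural calls depended on the libraries, with 1 called without PGC replicate 2, 4 without PGC replicate 1 or soma replicate 2, and 9 without soma replicate 1.

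Among the other genome activation factors, eomes alone passed the threshold. pou5f3, the homologue of mammalian Oct4, had 857 and 416 CPM in PGCs, against 2024 and 1404 CPM in soma (log2 fold change -1.43 ± 0.62 SE, adjusted p = 0.18, edgeR). nanog had 134 and 64.6 CPM in PGCs, against 80.2 and 30.3 CPM in soma, with overlapping groups (adjusted p = 0.62). An ID annotated eomes (ENSDARG00000006640), a T-box gene of maternal and early mesendoderm expression, rose, with 29.6 and 48 CPM in PGCs, against 2.47 and 2.79 CPM in soma (3.88 ± 0.52 SE, adjusted p = 0.0143). Of the 13 tested genome activation factors, 1 rose (7.69%, beside 3.61% of all tested genes) and 3 fell (23.1%, beside 1.83%), the 3 SoxB1 genes above. The list had 0 calls without PGC replicate 2, 1 rise and 2 falls without PGC replicate 1, and 1 rise and 3 falls without either soma library.

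Epidermis and enveloping layer genes fell into 2 groups with opposite directions. The enveloping layer is the outermost cell sheet of the early embryo and expresses keratins, and the epidermal ectoderm below it is marked by tp63 and Tfap2 factors. Of 29 tested genes, 5 rose and 6 fell, beside 3.61% higher and 1.83% lower of all tested genes. The other 18 did not pass, and the median log2 fold change of the list was 1.19. The rises were enveloping layer genes, namely anxa1c, grhl3, evpla, grhl1 and krt18a.1. krt18a.1, a keratin gene, had 2002 and 1036 CPM in PGCs, against 153 and 473 CPM in soma (log2 fold change 2.28 ± 0.51 SE, adjusted p = 0.0315, edgeR). grhl3, a transcription factor gene of surface epithelia, had 121 and 47.4 CPM in PGCs, against 6.81 and 18.5 CPM in soma. evpla, which encodes an envoplakin, had 1096 and 426 CPM in PGCs, against 67.8 and 217 CPM in soma.

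The same order of libraries, PGC replicate 1, PGC replicate 2, soma replicate 2 and soma replicate 1, recurred in keratin genes that did not pass. krt8 had 4849 and 2053 CPM in PGCs, against 348 and 1299 CPM in soma (log2 fold change 2.07 ± 0.58 SE, adjusted p = 0.0605, edgeR). krt4 had 2820 and 1483 CPM in PGCs, against 209 and 696 CPM in soma (adjusted p = 0.0565). krt5, the periplakin gene ppl and the claudin gene cldne had log2 fold changes of 2.20, 2.14 and 2.67 with adjusted p of 0.0744, 0.0744 and 0.0605. The 16 keratin genes together, a family chosen after its values were seen, summed to 13050 and 6202 CPM in PGCs, against 939 and 3269 CPM in soma, and 2 of them had no counts in any 7 hpf library. Soma replicates therefore differed by more than 3-fold in keratin level and PGC replicates by about 2-fold. The part of enveloping layer cells in the sorted PGC samples was not tested. Against 5 rises and 6 falls of the epidermis and enveloping layer list in the main fit, DESeq2 and edgeR's exact test each called 13 rises and 6 falls. Limma on TPM called 12 or 13 rises and 1 or 3 falls, and edgeR without a count filter called 14 rises and 6 falls. The 4 libraries at 7 hpf alone gave 1 rise and 2 falls. Of the 5 rises, 0 were called without PGC replicate 1 or without soma replicate 1, 2 without PGC replicate 2, and 0 with the replicate number fitted within each stage, whereas without soma replicate 2 the list had 11 rises.

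The 6 genes that fell included regulators of the epidermal ectoderm. tfap2c had 48.1 and 73.6 CPM in PGCs, against 334 and 267 CPM in soma (log2 fold change -2.30 ± 0.28 SE, adjusted p = 0.0133, edgeR). foxi1, a forkhead factor gene of the non-neural ectoderm, had 43.9 and 45 CPM in PGCs, against 174 and 191 CPM in soma. tp63, which encodes the regulator of basal epidermis, had 4.21 and 11.7 CPM in PGCs, against 30.4 and 49.3 CPM in soma. dlx3, gata2 and tfap2a fell by 2.87, 1.59 and 1.59 on the log2 scale. The number of falls was 6 with the replicate number fitted within each stage and 2 to 5 without each library in turn.

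**Figure D4:**
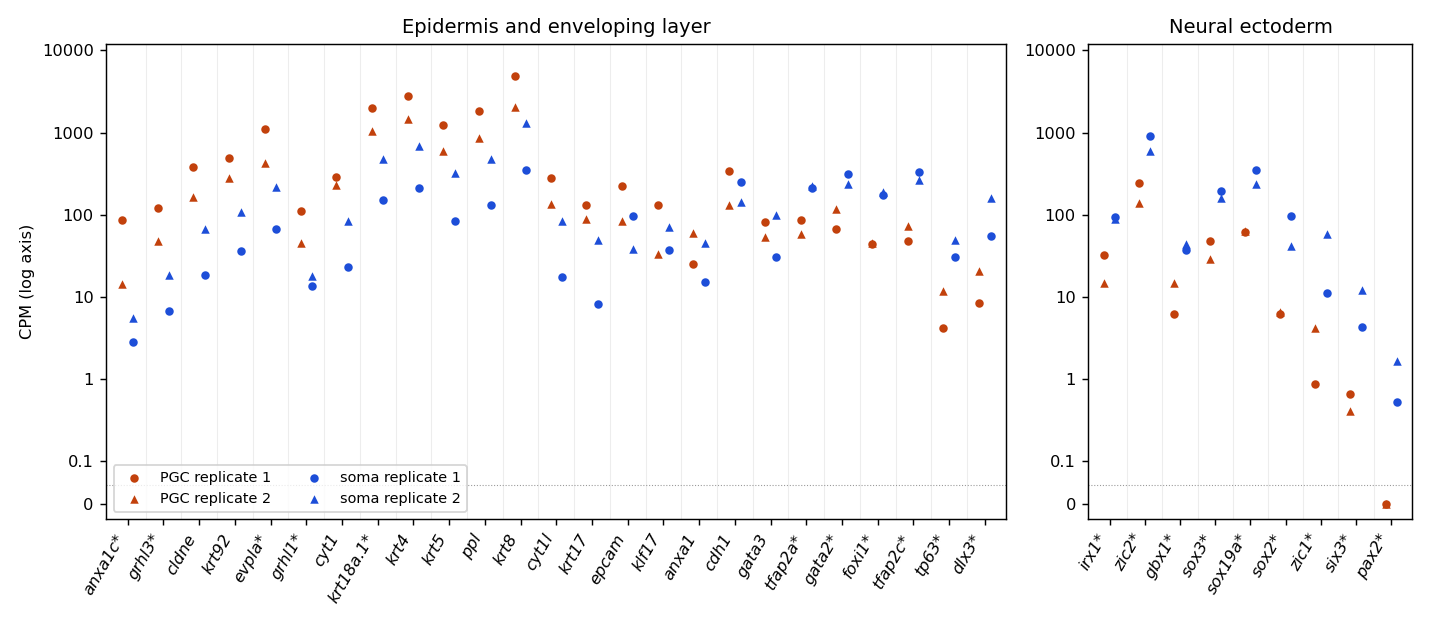
CPM (log axis, with 0 drawn at the bottom) in each 7 hpf library, PGC in orange and soma in blue, for epidermis and enveloping layer genes with more than 1 CPM in a library (left) and for 9 neural ectoderm genes that passed (right), with asterisks at genes that passed. Keratins and other enveloping layer genes lie higher in PGCs at the left, tfap2a to dlx3 lie lower in PGCs, and every neural gene shown lies lower in PGCs.

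Mesoderm and endoderm genes showed few calls. Over all tested genes, 3.61% were higher and 1.83% lower. At an unadjusted p under 0.05 in edgeR, 2624 of the 19885 tested genes were lower. The median log2 fold change was -0.58 for genes averaging 100 CPM or more and -0.14 for those with 10 to 100 CPM. The share of all tested genes with a log2 fold change below 0 was not counted. Of 32 tested genes of mesoderm, organizer and endoderm, 1 rose and 0 fell (with 27 of 32 log2 fold changes below 0, median -0.86), and of 37 tested genes of dorsoventral, Wnt, Fgf and retinoic acid signalling 0 passed in edgeR, with a median of -0.64 and 9 lower at an unadjusted p under 0.05. Of these signalling genes DESeq2 called bmp7a (-1.70) and shh (-6.51), both lower, and the exact test called bmp7a, named after their values were seen. The rise was mixl1, a homeobox gene of mesendoderm, with 143 and 80.6 CPM in PGCs, against 19.2 and 3.35 CPM in soma (log2 fold change 3.30 ± 0.76 SE, adjusted p = 0.0396, edgeR). The notochord and tail gene tbxta had 283 and 206 CPM in PGCs, against 468 and 239 CPM in soma, and the mesoderm gene tbx16 had 529 and 498 CPM in PGCs, against 532 and 288 CPM in soma. Both are therefore abundant in the PGC libraries, and neither passed (adjusted p = 0.344 and 0.779). The organizer gene chrd, a secreted Bmp antagonist, had 413 and 181 CPM in PGCs, against 577 and 618 CPM in soma (-1.01 ± 0.40 SE, adjusted p = 0.145). For gsc, PGC replicate 1 and the soma libraries had 20.3 to 23.9 CPM, and PGC replicate 2 had 4.02 CPM. Of 11 tested yolk syncytial layer genes, 1 fell, the apolipoprotein gene apoeb, with 838 and 993 CPM in PGCs, against 2955 and 3117 CPM in soma. Of 14 tested genes of blood, vessel and muscle 0 passed in edgeR or its exact test, 2 were lower at an unadjusted p under 0.05, and DESeq2 called myod1 lower. The rise of mixl1 was not called without either PGC library, and the fall of apoeb was not called without any 1 of the 4 libraries.

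Several circadian clock genes were higher in PGCs. Of 23 tested, 6 rose (26.1%, beside 3.61% of all tested genes) and 0 fell, with a median log2 fold change of 1.22. cry1ab, a cryptochrome gene whose light-induced product represses the clock, had 9.87 and 27.1 CPM in PGCs and 0 counts in both soma libraries, and was at least 73.3-fold higher in PGCs, against the floor of 3 counts per library. per2, a light-responsive period gene, had 44.4 and 49.6 CPM in PGCs, against 6.21 and 3.26 CPM in soma (log2 fold change 3.30 ± 0.40 SE, adjusted p = 0.0133, edgeR). ciarta, a clock repressor gene, had 15.31 and 21.12 CPM in PGCs, against 0.449 and 1.21 CPM in soma. Both IDs annotated bmal1, the activator of the clock, also rose, by 3.37 and 2.61 on the log2 scale, as did one ID annotated per1 (ENSDARG00000012499), by 3.42. The count was 4 without PGC replicate 2, 9 without soma replicate 1 and 5 or 6 without the others, and limma on TPM gave 3 or 4.

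Heat shock genes moved in both directions. Of 16 tested, 4 rose (25%, beside 3.61% of all tested genes) and 1 fell (6.25%, beside 1.83%). hsp70.1 and hsp70l encode inducible chaperones. hsp70.1 had 18.8 and 17.3 CPM in PGCs, against 0.823 and 0 CPM in soma, and hsp70l had 24.08 and 20.9 CPM in PGCs, against 2.62 and 0.373 CPM in soma. hsp90aa1 had 279 and 605 CPM in PGCs, against 50.8 and 130 CPM in soma (log2 fold change 2.29 ± 0.49 SE, adjusted p = 0.0284, edgeR). Reads of these 3 genes were partly shared with other genes, so their values are uncertain. The other rise was the co-chaperone gene dnajb1a (1.89). hspb1, a small heat shock protein gene, had 450 and 345 CPM in PGCs, against 1573 and 1786 CPM in soma (-2.08 ± 0.40 SE, adjusted p = 0.0223). The number of rises was 0 without PGC replicate 2 and 2 without each of the other libraries. The part of stress during dissociation and sorting was not tested.

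**Figure D5:**
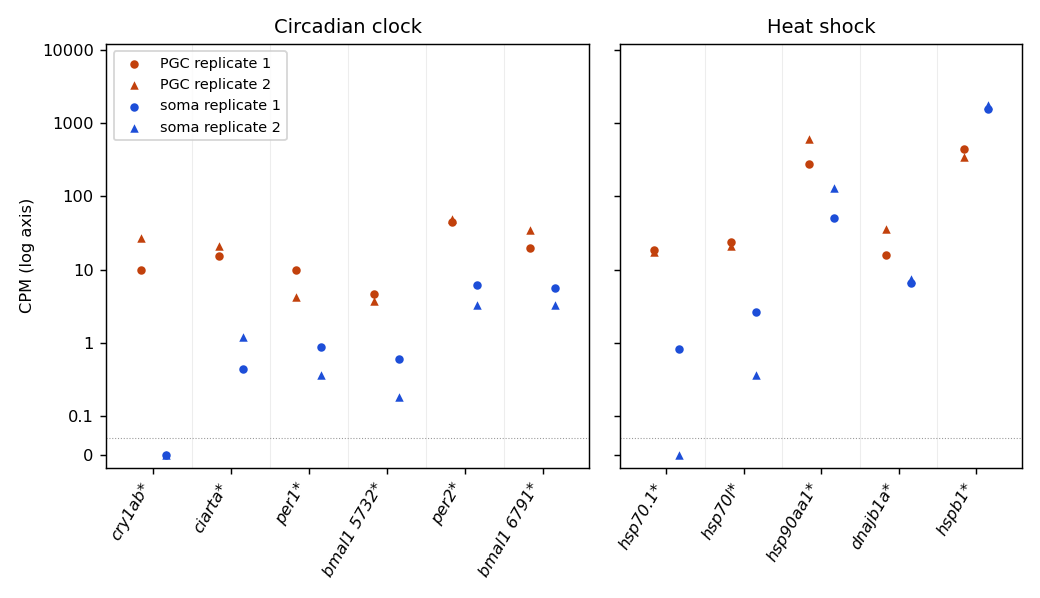
CPM (log axis, with 0 drawn at the bottom) in each 7 hpf library, PGC in orange and soma in blue, for the members of the clock and heat shock lists that passed the threshold. PGC libraries lie above soma in every gene shown except hspb1, and cry1ab had no counts in soma.

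In the main edgeR fit, cell cycle genes that passed were all lower in PGCs. Of 37 tested cell cycle genes, 4 fell (10.8%) and 0 rose, with a median log2 fold change of -0.36. Of all tested genes 1.83% were lower. Of those averaging 100 CPM or more, 5.23% were lower, and their median was -0.58. Without a minimum fold change, 9 cell cycle genes fell. The falls were the replication genes mcm5, mcm4 and cdc6 and the G1 cyclin gene ccnd1. DESeq2 and edgeR's exact test each called 4 falls and 1 rise in this list. A filter of at least 50 counts on average gave 0 falls and 1 rise, and limma on TPM gave 0 calls. mcm5, a subunit of the replicative helicase, had 96.6 and 87.6 CPM in PGCs, against 323 and 242 CPM in soma (log2 fold change -1.62 ± 0.24 SE, adjusted p = 0.0148, edgeR). ccnd1 had 330 and 253 CPM in PGCs, against 970 and 722 CPM in soma. The replication clamp gene pcna had 458 and 402 CPM in PGCs, against 1008 and 926 CPM in soma, with a log2 fold change of -1.17 that was short of the fold threshold (adjusted p = 0.0212). The proliferation marker mki67 had 1481 and 1393 CPM in PGCs, against 2361 and 2301 CPM in soma, and did not pass (-0.70 ± 0.24 SE, adjusted p = 0.103). The number of cell cycle falls was 0 without PGC replicate 2 or soma replicate 1, 6 without PGC replicate 1 and 5 without soma replicate 2.

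Cytosolic ribosomal protein genes, a family chosen after its values were seen, were nearly uniform. In 81 of 82 tested genes both PGC libraries lay below both soma libraries, beside 24.9% of all tested genes. The median log2 fold change was -1.17, beside -0.58 over the tested genes averaging 100 CPM or more. The share of genes separated in this way at that abundance was not counted. The genes together summed to 7389 and 6319 CPM in PGCs, against 15590 and 15870 CPM in soma. The 5 genes rpl31, rpl35, rpl35a, rplp1 and rpl36al passed with the fold threshold and 58 had an adjusted p under 0.05 without it. Over the other scalings, filters and TPM settings the median of this family lay between -1.23 and -1.04, and the median of all tested genes between 0 and 0.03. The translation elongation factor gene eef1a1l1 had 5582 and 4569 CPM in PGCs, against 12900 and 10980 CPM in soma (-1.23 ± 0.22 SE, adjusted p = 0.0198, edgeR), and did not reach the fold threshold. Of 16 tested housekeeping genes, 1 rose and 1 fell (6.25% each, beside 3.61% higher and 1.83% lower of all tested genes). The rise was the TATA-binding protein gene tbp (1.65). The fall was the ID annotated tuba1a (-2.79), whose reads were partly shared with other genes. The median of the housekeeping genes was -0.95. Ribosomal protein falls numbered 21 without PGC replicate 1, 0 without PGC replicate 2, 6 without soma replicate 1 and 7 without soma replicate 2, and housekeeping genes had 0 calls without PGC replicate 2, 2 falls without PGC replicate 1 and 3 without soma replicate 2.

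Genes past the threshold with high TPM included chromatin, cytoskeleton and germ plasm genes. By TPM, a level per transcript length, the 10 most abundant in PGCs were hmga1a (663), krt18a.1 (611), hmgb2 (509), apoeb (446), si:ch211-241j12.3 (444), tdrd7a (433), tuba8l4 (427), nanos3 (421), h3f3a (375) and ddx4 (317). hmga1a, which encodes a chromatin protein of the high mobility group, had 2431 and 1496 CPM in PGCs, against 6868 and 7732 CPM in soma (log2 fold change -1.89 ± 0.27 SE, adjusted p = 0.0148, edgeR). hmgb2, another high mobility group gene, had 971 and 702 CPM in PGCs, against 2332 and 2491 CPM in soma, and h3f3a, a variant histone H3 gene, fell by 1.59 on the log2 scale. The 10 called genes most abundant by TPM in soma were all lower in PGCs. Ranking called genes by their soma level favours that direction, so it adds nothing. Among genes at 100 CPM or more, 95 calls were lower and 26 higher. Besides hmga1a, hmgb2, h3f3a, apoeb, tuba8l4 and hspb1, the 10 genes included cirbpb (-1.70), a cold-inducible RNA-binding protein gene, and ddx39a (-1.52), an RNA helicase gene. The others were the unnamed loci si:ch211-152c2.3 (-2.57) and si:ch211-222l21.1 (-2.18). Reads of tuba8l4 were partly shared with other genes, so its values are uncertain. Of 26 tested genes of small RNA function and mRNA decay, 1 rose and 1 fell (3.85% each, beside 3.61% higher and 1.83% lower of all tested genes). The Argonaute gene ago3 rose (2.58) and igf2bp3, an mRNA-stabilising protein gene, fell (-1.75). Neither of these last calls held without PGC replicate 2.

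The largest rises among named genes included cry1ab, ca15b, nanos3, si:rp71-45k5.2, dnd1, hexd, tdrd7a, zgc:154054 and thra. Of these, cry1ab, si:rp71-45k5.2, hexd, zgc:154054 and thra had 0 counts in both soma libraries. hexd, a hexosaminidase gene, had 4.57 and 5.36 CPM in PGCs and was at least 19.7-fold higher, and an ID annotated thra (ENSDARG00000052654), a thyroid hormone receptor gene, had 3.99 and 3.71 CPM in PGCs and was at least 15.27-fold higher, both against the floor of 3 counts per soma library. The 10 largest falls all had 0 counts in both PGC libraries and low levels in soma. They included fam171b (2.54 and 3.17 CPM in soma, at least 10.8-fold lower in PGCs), syn1, a synaptic vesicle protein gene (1.72 and 3.26 CPM in soma, at least 9.46-fold lower), col5a2, a fibrillar collagen gene (2.25 and 2.24 CPM in soma, at least 8.51-fold lower), and mafbb, a transcription factor gene (2.47 and 1.96 CPM in soma, at least 8.4-fold lower). Reads of fam171b and, among the rises, of si:rp71-45k5.2 were partly shared with other genes, so their values are uncertain. Among 17 tested genes of interferon response and antigen presentation, 1 rose (5.88%, beside 3.61% of all tested genes). This was parp12a, with 4.93 and 5.77 CPM in PGCs, against 0 and 0.0932 CPM in soma. The rise of parp12a was not called without PGC replicate 2 or without soma replicate 1.

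Whether a difference at 7 hpf was particular to that stage was tested by the interaction of cell type and stage. In edgeR's quasi-likelihood fit it passed for 1 of 19885 genes (0.00503%), si:ch211-241j12.3 (ENSDARG00000043963), with 4494 and 3972 CPM in PGCs, against 51.7 and 46.5 CPM in soma at 7 hpf. Its log2 fold change of PGC over soma was 6.43 at 7 hpf and 0.63 at 24 hpf. At an unadjusted p under 0.05 the interaction held for 2994 genes, among them 664 of the 717 higher and 338 of the 364 lower genes, which were chosen on the 7 hpf side of the same contrast. The number of calls of the cell type by stage interaction depended on the tool and libraries, with 785 in DESeq2, 986 in edgeR without a count filter and 27 without soma replicate 1. Of the 717 genes higher at 7 hpf, 37 had a log2 fold change of at least 1.5 at 24 hpf, beside 7.1% of all tested genes. The median of the 717 at 24 hpf was 0.11. Of the 364 lower genes, 5 were lower by at least 1.5 at 24 hpf, beside 3.26% of all tested genes. Their median at 24 hpf was -0.22. These shares were not matched for abundance and cannot be compared directly. At 7 hpf, 5670 of the 19885 tested genes averaged under 1 CPM, against 49 of the 717 higher and 25 of the 364 lower genes. The log2 fold changes at 24 hpf were 7.46 for nanos3, 8.03 for ca15b, 6.002 for dnd1, 6.40 for tdrd7a, 6.57 for ddx4, 5.51 for dazl and 9.26 for adad1, whereas rgs14a had 0.76, cry1ab 0.80 and per2 0.99. At 24 hpf itself nanos3, ca15b, dnd1, tdrd7a and ddx4 passed, whereas dazl and adad1 did not (adjusted p = 0.296 for each, edgeR). The interaction did not pass for any of these genes (adjusted p of 0.117 to 0.614, edgeR), so a difference between stages was not shown for them.

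PGC-enriched genes named in the study's gene ontology enrichment results for sorted cells at other stages were also read at 7 hpf, as lists. These lists may lack PGC-enriched genes outside the reported terms. They were chosen by the study on its own libraries and are not independent evidence of a direction. Over all tested genes, 3.61% were higher and 1.83% lower at 7 hpf. Of its 26 genes listed at 4 hpf, 15 rose and 1, cabz01030017.1, fell at 7 hpf, with a median log2 fold change of 2.59. Of its 42 genes listed at 24 hpf, 11 rose and 0 fell (median 1.96), and of its 100 genes listed at 36 hpf, 22 rose and 1, add3b, fell (median 1.68). Genes whose promoters gained DNA methylation in somatic cells from 24 hpf on, a later stage than the one compared here, formed a further list of the study. According to the study, all of these promoters gained methylation in PGCs as well. These genes were chosen by promoter methylation, not as germline genes. Of the 68 symbols in that list, 46 were matched to IDs. Of 29 tested, 4 rose (13.8%, beside 3.61% of all tested genes) and 0 fell. The rises were dazl, sycp1, ddx4 and tatdn2, of which tatdn2 had 52.2 and 93.8 CPM in PGCs, against 9.8 and 3.73 CPM in soma. Without PGC replicate 2 the rises numbered 11, 6 and 7 in the lists of 4, 24 and 36 hpf and 2 among the methylated promoters, and without soma replicate 2 the list of 36 hpf had 14.

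Finally, effective length, the transcript length available to fragments averaged over the isoforms of a gene, was compared as a measure of isoform use per gene. Of 5828 tested genes, 0 (0%) differed between PGCs and soma at 7 hpf with limma at an adjusted p below 0.05 together with a log2 change of 0.2 or more in either direction, and 414 had an unadjusted p under 0.05. The smallest adjusted p was 0.0752, for haus6, a gene of the spindle-associated augmin complex, whose effective length was 1979 and 2053 bases in PGCs, against 2681 bases in both soma libraries. With at least 100 counts required in each library, haus6 was the single gene that passed of 3675 (log2 change -0.41, adjusted p = 0.0348, limma), and it is named after its values were seen. Changes in single exons were not analysed here. The study itself measured exon inclusion and reported exons used differently between PGCs and soma, including at 7 hpf. It found that cell type contributed much less than stage to the variation in exon inclusion. Effective length is averaged over the isoforms of a gene and can miss such exons. The 0 calls above therefore do not show that isoform use was the same in PGCs and soma.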

How the data were processed

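The authors used Trim Galore for trimming, STAR for alignment to danRer10 and RSEM for quantification. The deposited tables hold expected counts (estimated counts that can be fractional), TPM values and effective lengths in bases, the last 2 also computed by the authors with RSEM. Whether counting used strand is not given in the sources used here, so overlapping and antisense genes are uncertain, as is whether an earlier sequencing run was merged in. The 4 libraries at 7 hpf and the 4 at 24 hpf were matched by column name to their titles. Gene IDs were named through a reference table and, for 1 ID, the study's own pairs of IDs and names (26791 of 34381 IDs; 4658 share a symbol with another ID), and list symbols with no exact match were matched without their duplicate suffix.

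Expected counts were rounded. After filterByExpr and TMM, edgeR 4.0.16 in R 4.3.3 gave quasi-likelihood tests in 1 fit of 4 group means, with Benjamini-Hochberg adjustment over all 19885 genes. SE is the log2 fold change divided by the root of F. Fold bounds set a group without counts to 3 counts per library, and such floors cover counting error only. Effective length was tested with limma 3.58.1 on the log2 scale, with a trend, for genes with at least 20 counts in each 7 hpf library and at least 500 bases whose length varied by over 1 base, after removing each library's median shift. Alternatives included RLE scaling, upper-quartile scaling (chosen after seeing the data), DESeq2 1.42.0, the exact test, other filters and thresholds, length offsets, limma on log2(TPM + 1) and log2(TPM + 0.1) for genes with a mean of at least 1 TPM, a replicate block and leaving out libraries.

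Named genes were, per list and direction, up to 6 of the largest changes past the threshold, plus list members discussed as not past it, the 10 largest rises and falls, the 10 most abundant called genes in each cell type, and genes of smallest interaction p. The gene lists and the comparison were chosen with earlier results of these data known. Same-numbered libraries were not taken as pairs, since nothing in the labels ties them. Tests were tried on simulated data. Some genes and 1 gene list are not reported here.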

Additional observations from a re-analysis of the deposited data

Results flagged for a closer look

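si:ch211-241j12.3 differed between PGCs and soma by more at 7 hpf than at 24 hpf. The difference of the log2 fold changes was 5.80 ± 0.32 (SE, adjusted p = 0.000442 for the interaction in edgeR). It was the single gene of 19885 to pass in the quasi-likelihood fit of all 8 libraries, whereas DESeq2 called 785 genes for the cell type by stage interaction and edgeR without a count filter 986.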

How the results depend on the processing

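Each value below replaces 1081 called genes (717 higher, 364 lower in PGCs) and 1 call of the cell type by stage interaction. DESeq2 called 2227 (1521 higher, 706 lower; interaction 785), edgeR's exact test 2099 (1437 higher, 662 lower), and edgeR with no count filter 2244 (1469 higher, 775 lower; interaction 986). The 4 libraries at 7 hpf alone gave 400 (260 higher, 140 lower). With no minimum fold change 1647 genes were called (848 lower), 48.5% of them higher, and a minimum of 1 gave 789 lower. limma on log2(TPM + 1) called 659 (116 lower; interaction 45), 82.4% higher, and on log2(TPM + 0.1) 469 (394 higher, 75 lower; interaction 21), 84% higher. Effective length with a minimum of 100 counts gave 1 call. Leaving out each library gave 152 to 1191 calls (111 to 781 higher, 41 to 410 lower) and 1 to 27 interaction calls; 152 came without PGC replicate 2 and 27 without soma replicate 1. A lone library was assumed to vary like the other groups. The cause was not tested for any of these. The exact test and the 4-library fit give no interaction value.

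Without each library in turn, 4 genes that did not pass changed sign: piwil1 ranged from -0.01 to 1.94, cxcr4 (ENSDARG00000041959) from -0.01 to 1.45, tbx16 from -0.05 to 0.84 and tbxta from -0.94 to 0.04. The 103 named genes past the threshold gave 1813 values over 18 settings, of which 1473 stayed past it, 340 did not and 0 reversed.

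Same-numbered PGC and soma libraries deviated together little (correlation of replicate differences 0.077). A replicate block gave 952 calls (599 higher, 353 lower), and a block within stage 864 (498 higher, 366 lower), with 1 interaction call in each.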

Other observations

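Gene families picked by symbol after their values were seen added further values, which carry no test of a family. Over all tested genes, 3.61% were higher and 1.83% lower in PGCs. Of 30 tested RNA polymerase subunit genes, polr3gla (-1.92), polr2e (-1.90), polr2c (-1.89) and polr1d (-1.71) were lower in PGCs on the log2 scale and 0 were higher, with a median of -0.82. Of 25 tested claudin genes, which encode tight junction proteins, cldn30 (6.72), cldn8.2 (3.32) and cldn7b (2.37) were higher and 0 were lower. Claudin genes summed to 692 and 372 CPM in PGCs, against 99.2 and 172 CPM in soma, the same order of libraries as in the keratins.

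Of 29 tested TBC domain genes, which encode regulators of Rab GTPases, 5 were higher, led by tbc1d12b (3.79) and tbc1d25 (3.25), and 0 were lower. Without each library in turn the number of higher TBC domain genes was 0 to 5, with the lowest without PGC replicate 2. Claudin rises numbered 0 without PGC replicate 1, 1 without PGC replicate 2 or soma replicate 1 and 4 without soma replicate 2, and polymerase subunit falls 0 without PGC replicate 2 and 2 without soma replicate 1.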
